A study of Homo sapiens with 10 samples.

Results

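TMED2, TMED3, TMED4, TMED9 and TMED10 are cargo receptors of the p24 family, and TM9SF1, TM9SF2, TM9SF3 and TM9SF4 are the multi-pass membrane proteins known as nonaspanins. These 9 genes are 0.0847% of the 10631 genes that had at least 1 listed position in any of the 10 libraries. They were chosen by name, from a list drawn up with the comparison of cobalt-treated and untreated MDA-MB-231 cells in view, so their values in that comparison are given as a description with no test. Each library listed coding positions at which long (PacBio) reads of polyadenylated RNA carried a C-to-U edit, together with the reads that covered the position. All cells carried a doxycycline-inducible vector. In HEK293T, a human embryonic kidney line, it encoded the cytidine deaminase APOBEC1 alone (APOBEC1 only, 3 libraries) or APOBEC1 joined to the ribosomal protein RPS2 (Ribo-STAMP, 3 libraries), induced for 72 h at 1 µg/mL without any cobalt. In MDA-MB-231, which was derived from a triple-negative breast tumour, it encoded the Ribo-STAMP fusion, induced for 48 h at 1 µg/mL, in untreated cells (NT, 2 libraries) and in cells given 100 µM cobalt(II) chloride for 48 h (CoCl2, 2 libraries). Cobalt chloride is a chemical used to set off the hypoxia response. The fusion is an overexpressed protein, MDA-MB-231 had no APOBEC1-only libraries here, and the lines differed in library kit and induction time, so no test was made between lines.

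TMED proteins span the membrane of the early secretory pathway and travel between the endoplasmic reticulum (ER) and the Golgi. Their short cytosolic tails bind the COPII coat, which carries cargo forward, and the COPI coat, which carries it back. GPI-anchored surface proteins are among the cargo they help to leave the ER. TM9SF proteins have a large lumenal domain and sit mostly in the Golgi and in endosomes, where they have been tied to the sorting of membrane proteins and, for TM9SF2, to glycosylation. APOBEC1 turns C into U, preferably after A or U. When it is joined to the small ribosomal subunit, it leaves such edits on mRNAs that ribosomes engage.

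The MDA-MB-231 libraries held 155572 to 177069 edited reads, counted once per edited position, and 1120240 to 1204721 reads on listed isoforms. The Ribo-STAMP libraries of HEK293T held 50908 to 65792 edited reads and the APOBEC1-only libraries 2971 to 3498. The 6 MDA-MB-231 markers (ANXA1, CD44, PLAUR, AXL, CAV1 and TGM2) were all listed in MDA-MB-231, with 399 to 823 edited reads in sum per library, against 0 to 1 in HEK293T. Of the luminal breast genes expected to be absent from MDA-MB-231, ESR1 and PGR were not listed in either line. EPCAM was listed in every MDA-MB-231 library, with 5 and 18 edited reads in NT and 12 and 6 in CoCl2. GATA3 had 1, in CoCl2 replicate 1. The list of 4 summed to 5 to 18 edited reads per MDA-MB-231 library. HEK293T markers gave 55 to 128 edited reads per Ribo-STAMP library of HEK293T and 43 to 145 in MDA-MB-231, where CKB was the only one listed. In the APOBEC1-only libraries none of these markers had more than 8 edited reads, and NEFL was listed in neither line. Of 9 tested genes of a hypoxia list of 12, 5 rose in coverage under CoCl2 and 1 fell, as called by limma. Over all 5673 genes, 24.1% rose and 19.4% fell. VEGFA, CA9 and PDK1 of the list were not tested, and none had more than 4 edited reads in any MDA-MB-231 library. The gene that fell was SLC2A1, a glucose transporter gene named here after its values were seen (log2 change -0.59, SE 0.19, adjusted p = 0.017 in limma, and -0.02 with the trend with transcript length removed).

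TMED2 (ENSG00000086598) lies at chr12:123584531-123598577 on the plus strand, TMED3 (ENSG00000166557) at chr15:79311062-79427432 (+) and TMED9 (ENSG00000184840) at chr5:177592158-177596124 (+). TMED4 (ENSG00000158604) lies at chr7:44577894-44582287 (-) and TMED10 (ENSG00000170348) at chr14:75131470-75176631 (-). Of the nonaspanin genes, TM9SF1 (ENSG00000100926) lies at chr14:24189143-24195687 (-), TM9SF2 (ENSG00000125304) at chr13:99446311-99564006 (+), TM9SF3 (ENSG00000077147) at chr10:96518109-96587452 (-) and TM9SF4 (ENSG00000101337) at chr20:32109506-32167258 (+). On the opposite strand, noncoding genes overlap TMED2 (AC055713.1), TMED10 (AL049780.2) and TM9SF2 (LINC01232 and LINC00449), and a pseudogene overlaps TM9SF3 (NPM1P26). On the same strand, AL139035.1 overlaps TM9SF2 and AL049539.1 overlaps TM9SF4. Whether reads were assigned by strand is not given in the sources used here, and the coverage of all these genes may include reads of the genes that overlap them.

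The letters below are the coding sequence around 8 edited positions of the genes on which the results turn, 14 bases to each side, with the edited C in capitals. They were taken from GENCODE v29 transcripts, read 5′ to 3′ on the mRNA and written with T for U. Each is among the positions with the most edited reads of its gene, and they are shown because each follows the A or U that APOBEC1 prefers.
TMED2, exon 2, chr12:123586762-123586790 (+): aacaaaggaatttaCaaaggagacagaga
TMED2, exon 4, chr12:123596679-123596707 (+): ggacagatctactaCctgaagagattttt
TMED3, exon 3, chr15:79322171-79322199 (+): tcttcacagaaaaaCgacccatcagcagg
TMED9, exon 3, chr5:177593714-177593742 (+): agcaccagatctgtCttcactccaattcc
TMED10, exon 1, chr14:75176449-75176477 (-): catctgcccattaaCtctcgcaagtgcct
TM9SF2, exon 16, chr13:99559474-99559502 (+): agcacaattctgtaCtttggttataccat
TM9SF3, exon 4, chr10:96561986-96562014 (-): actggttccaaataCtaaaatccagatgt
TM9SF3, exon 4, chr10:96562065-96562093 (-): ggacctataaaaaaCttgaaataggtttt
Coordinates are GRCh38. At the TMED2 position in exon 2, 7 of 1578 reads were edited in NT replicate 1, 5 of 726 in NT replicate 2 and 2 of 408 in CoCl2 replicate 2, and the position was not listed in CoCl2 replicate 1. At the TMED10 position in exon 1, 9 of 430 reads were edited in CoCl2 replicate 1, 2 of 449 in CoCl2 replicate 2 and 1 of 321 in NT replicate 2. The TM9SF2 position in exon 16 carried 5 edits in 129 reads and 4 in 89 reads in the NT libraries, and 1 in 62 reads in CoCl2 replicate 1. That share of 4.49% in NT replicate 2 was the highest of the 8 positions in the NT libraries, so each position rested on few edited reads.

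The abundance of the mRNAs was read from coverage. This is the median number of reads over the listed positions of an isoform, summed over isoforms listed in every library and scaled between libraries. The 9 genes did not go one way under CoCl2: TM9SF3, TMED2 and TM9SF2 were lower, TMED9, TMED3 and TMED10 were higher, and TMED4, TM9SF1 and TM9SF4 lay within or near the spread between libraries. All 9 genes passed the coverage minimum of 10 reads, taken on the mean over libraries. For TM9SF3 that mean rested mostly on its NT libraries, with 88 and 46 covering reads against 12 and 6 in CoCl2. For reference only, since the contrast chose the genes, 3 passed the limma threshold upward, where 24.1% of 5673 genes did, and 3 downward, where 19.4% did. A lower coverage in bulk RNA cannot tell fewer expressing cells from less RNA per cell. Where groups are said below to overlap or not, this is a description. The share of all genes without overlap was not counted.

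**Figure D1:**
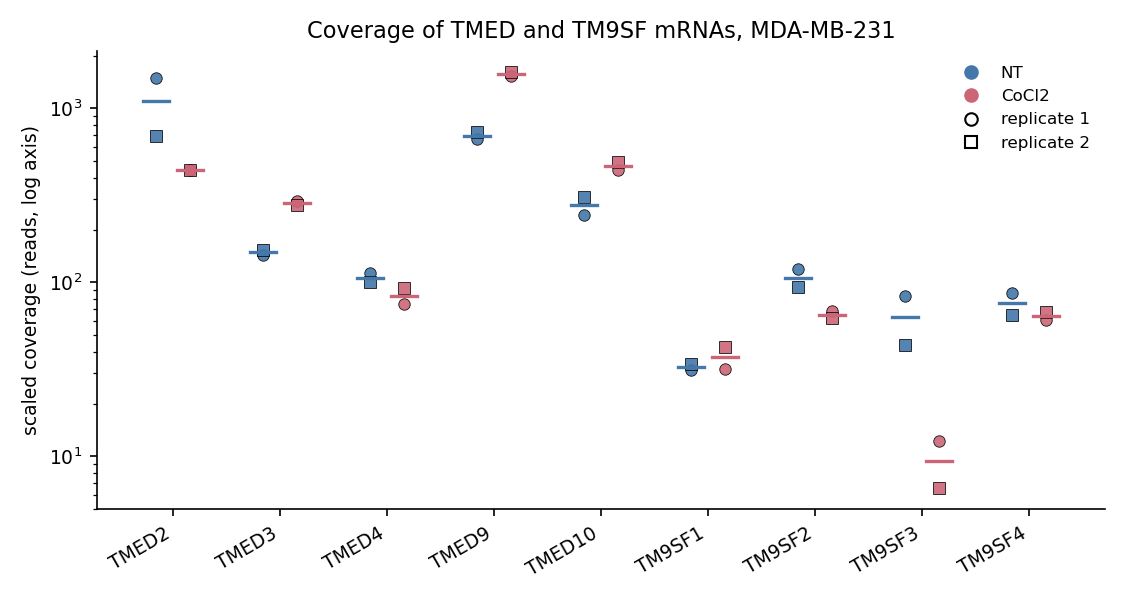
Scaled coverage (reads, log axis) of each gene in the 2 NT and 2 CoCl2 libraries of MDA-MB-231; points are libraries and bars the group mean. The CoCl2 libraries of TM9SF3 sit at 12.3 and 6.53 and its NT libraries at 83.7 and 43.4, while both CoCl2 libraries of TMED9 lie above both NT libraries.

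TMED2, the sole vertebrate member of the p24 β subfamily, had a scaled coverage of 1504 and 690.3 in the NT libraries and 440.3 and 443.8 in the CoCl2 libraries. Both CoCl2 libraries were below both NT libraries, which themselves differed widely. The log2 change was -1.20 (SE 0.25, n = 2 and 2), and it was -0.65 without NT replicate 1 and -1.78 without NT replicate 2.

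TMED10, the δ-subfamily partner of TMED2 in p24 complexes, went the other way. Its coverage was 244.3 and 309.8 in NT and 442.4 and 492.7 in CoCl2, with no overlap, a log2 change of 0.76 (SE 0.21, n = 2 and 2). TMED9, of the α subfamily, had the highest coverage of the 9 under CoCl2, with 666.5 and 730 in NT and 1543 and 1630 in CoCl2. Its log2 change was 1.18 (SE 0.18), so its mean level was 2.27 times the NT mean. TMED3, of the γ subfamily, was at 144.5 and 154.4 in NT and at 293.9 and 278.4 in CoCl2, a log2 change of 0.93 (SE 0.21), again without overlap. TMED4, the other α-subfamily gene of the set, was at 113.1 and 100.1 in NT and 74.8 and 92.5 in CoCl2. Its CoCl2 libraries were lower, by a log2 change of -0.35 (SE 0.25) that was close to its error. The p24 receptors therefore split, with TMED2 lower and its partner TMED10 higher in the same CoCl2 libraries.

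TM9SF3 showed the lowest log2 change of all 5660 genes with a coverage value and a transcript length. Its scaled coverage was 83.7 and 43.4 in NT and 12.3 and 6.53 in CoCl2, resting on 12 and 6 covering reads in the CoCl2 libraries. The groups did not overlap, the log2 change was -2.62 (SE 0.41, n = 2 and 2), and the CoCl2 mean was 0.148 of the NT mean. It was -2.16 without NT replicate 1, -3.09 without NT replicate 2, -3.02 without CoCl2 replicate 1 and -2.21 without CoCl2 replicate 2. A gene whose isoforms were not listed in some library had no value in this comparison, so the lowest rank holds only among genes listed in all 4.

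The other nonaspanins moved less than TM9SF3. TM9SF2 was at 118.8 and 93.5 in NT and 68.6 and 62 in CoCl2, with no overlap and a log2 change of -0.68 (SE 0.26). TM9SF4, which has been linked to phagocytosis, was at 86.5 and 65.2 in NT and 60.4 and 67.4 in CoCl2, with overlapping groups and a log2 change of -0.23 (SE 0.27). TM9SF1 had the lowest NT coverage of the 9, 31.4 and 34, against 31.7 and 42.4 in CoCl2, also overlapping. The gene shares its strand with the overlapping genes AL136295.4 and AL136295.1, and its reads could have been split with them.

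Transcript length moved with the CoCl2 contrast across all genes, so it bears on each of these values. The log2 change in coverage was lower by 0.52 for each doubling of transcript length (slope -0.52 over 5660 genes), which is a description across genes that share libraries. The 9 transcripts ran from 1473 bases (TMED9) to 6141 bases (TM9SF3), around a median of 2523 bases over tested genes. With the length trend removed from each library, 8.29% of genes passed upward and 6.15% downward in limma. The log2 change of TM9SF3 was then -2.10 (SE 0.37), of TMED2 -0.96 (SE 0.25), of TMED10 1.32 (SE 0.23) and of TMED9 0.53 (SE 0.13). TMED3 shrank to 0.28 (SE 0.16) and TM9SF2 to -0.12 (SE 0.20), and TM9SF4 turned from -0.23 to 0.33 (SE 0.21). After this adjustment TM9SF3 and TMED2 were still the lowest of the 9 and TMED10 was the highest.

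A straight line describes the length relation only in part. The values with the length trend removed came from a smooth (loess) curve over log2 transcript length in each library. Each gene was also set beside genes within 10% of its own transcript length. TM9SF3 was below all 225 such genes, whose median log2 change in coverage was -0.64 and whose 5th percentile was -1.43. TMED10 was above 97.6% of 589 genes of like length (median -0.61), and TMED2 was above only 4.48% of 803 (median -0.26). TMED9 was above 94.8% of 438 genes of like length, at a median of 0.73. TMED3 (75.8% of 442 genes below it), TM9SF4 (76.6% of 607), TM9SF1 (53.7% of 822), TM9SF2 (45.2% of 631) and TMED4 (31.3% of 816) lay inside the bulk. Why transcript length moved with the contrast was not tested.

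**Figure D2:**
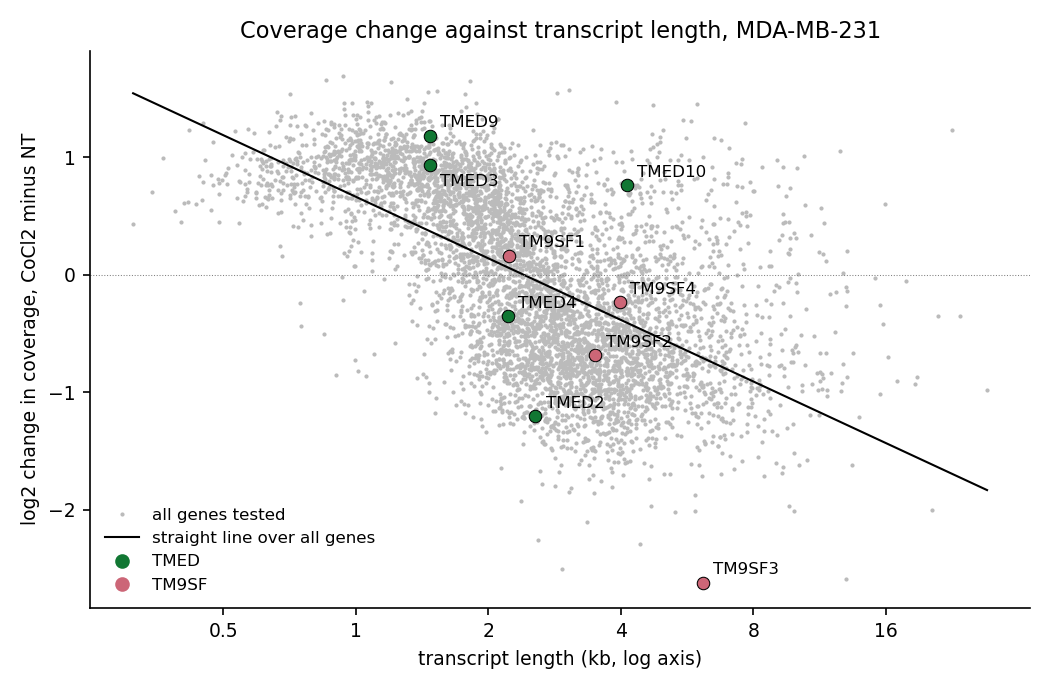
Log2 change in coverage (CoCl2 minus NT, vertical) against transcript length (kb, log axis) for all genes tested (grey), the TMED genes (green) and the TM9SF genes (pink), with a straight line over all genes. TM9SF3, at -2.62, lies below the genes of like length, TMED10, at 0.76, near the top of its length range, and TMED3 and TMED9 among other short transcripts that were higher under CoCl2.

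The genes whose coverage profile over the 4 libraries was most like that of TM9SF3 were PTPN14, HELLS and STS, by the root mean square difference of the log2 profiles after centring. That difference was 0.26, 0.30 and 0.31 on the log2 scale. PTPN14, a protein tyrosine phosphatase gene, was at 23.8 and 16.1 in NT and 4.61 and 1.09 in CoCl2. HELLS, which encodes a chromatin-remodelling helicase, was at 19.0 and 16.1 in NT and 4.10 and 1.09 in CoCl2. STS, the steroid sulfatase gene, was at 26.6 and 13.2 in NT and 6.14 and 2.18 in CoCl2. All 3 were low in the CoCl2 libraries, at 5 scaled reads or fewer in most of them.

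Edited reads per gene combine the amount of an mRNA with how often it was edited. Scaled to library depth, edited reads of TM9SF3 were 45.3 and 19.1 in NT and 4.11 and 7.58 in CoCl2, and those of TM9SF2 were 101.9 and 81.0 in NT and 42.1 and 30.3 in CoCl2. Neither gene's groups overlapped, and the log2 changes were -2.20 (SE 0.54) and -1.32 (SE 0.33). The TM9SF3 change was -1.60 without NT replicate 1 and -2.80 without NT replicate 2. Edited reads of TMED2 were 122.6 and 47.6 in NT and 41.1 and 40.1 in CoCl2, so the size of its change (-0.90, SE 0.42) rested on NT replicate 1, without which it was -0.23.

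The TMED genes with higher coverage under CoCl2 also had more edited reads. TMED9 had 20.8 and 32.4 scaled edited reads in NT and 97.6 and 102.9 in CoCl2, the largest difference upward of the 9 (log2 change 1.91, SE 0.34). TMED3 had 30.2 and 21.9 in NT and 59.6 and 58.5 in CoCl2 (1.17, SE 0.35), and TMED10 29.3 and 37.1 in NT and 64.7 and 71.5 in CoCl2 (1.02, SE 0.33). In TMED9, TMED3 and TMED10 alike, both CoCl2 libraries were above both NT libraries. The share of all genes separated in this way was not counted, so this is a description only. The changes with the length trend removed were 0.96 (SE 0.30) for TMED9, 0.22 (SE 0.35) for TMED3 and 1.45 (SE 0.33) for TMED10. TMED4 had 33.2 ± 2.90 in NT and 26.8 ± 7.20 in CoCl2 (mean ± SD, n = 2 and 2), TM9SF1 11.8 ± 1.93 and 18.0 ± 5.15, and TM9SF4 46.4 ± 13.1 and 33.2 ± 0.989.

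All 9 genes passed the minimum of 10 edited reads in 2 libraries. TM9SF3 did so through its NT libraries alone, with 48 and 20 edited reads against 4 and 7 in CoCl2. It could thus enter only as a gene lower under CoCl2. Again for reference only, 2 (TMED3 and TMED9) passed the limma threshold upward, where 12.1% of 4097 genes did, and 2 (TM9SF2 and TM9SF3) downward, where 2.9% did. With the length trend removed, 2.62% of genes passed upward and 1.57% downward, and of the 9 genes TMED10 passed upward and none downward. TM9SF3 was then at -1.80 (SE 0.51) and TM9SF2 at -0.89 (SE 0.29), so their values stayed below 0 where the calls were lost. The median gene was at 0.19 on this scale. Under TMM scaling, which centres on the bulk of genes, it was at -0.01, and the split of calls over all genes went from 495 higher and 119 lower to 212 and 200. In limma no gene passed without the minimum (1771 of 9753 at an unadjusted p under 0.05) or with edited positions in place of edited reads (1369 of 3881).

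Editing per covering read divides the edited reads of a gene by the reads that cover it, as a stand-in for how much an mRNA was engaged by ribosomes. A read edited at several positions counted at each, so values above 100 per 100 reads can occur. In this measure 0.0% of 5673 genes passed upward and 0.0% downward in limma, and none of the 9 did; 420 genes were higher and 64 lower at an unadjusted p under 0.05. The median gene was at a log2 change of 0.20. With 2 libraries per group no single gene was called, which does not show that editing per read was equal, and the values of the 9 genes are given as they stand.

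The mean values of the 5 TMED genes per 100 covering reads were higher in CoCl2, and over all genes tested the log2 change was above 0 in 67.4%. TMED9 was at 3.14 and 4.40 in NT and 6.30 and 6.34 in CoCl2, a log2 change of 0.75 (SE 0.21) that was the largest of the 9. TMED10 was at 12.1 and 11.9 in NT and 14.6 and 14.6 in CoCl2 (0.27, SE 0.22), and TMED2 at 8.22 and 6.84 in NT and 9.30 and 9.07 in CoCl2 (0.30, SE 0.21). TMED4 was at 21.9 and 20.8 in NT and 30.1 and 23.5 in CoCl2, and TMED3, whose groups overlapped, at 21.1 and 14.1 in NT and 20.2 and 20.7 in CoCl2. The log2 changes with the length trend removed were 0.49 (SE 0.19) for TMED9, 0.15 (SE 0.32) for TMED4, 0.14 (SE 0.21) for TMED2, 0.11 (SE 0.22) for TMED10 and -0.02 (SE 0.30) for TMED3, beside 0.01 for the median gene.

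TM9SF2 had the highest editing per covering read of the 9 genes in NT, 86.4 and 85.9 per 100 reads, against 61.2 and 49.1 in CoCl2. Both CoCl2 libraries were below both NT libraries, but the log2 change of -0.66 had an SE of 0.39. TM9SF4 was at 64.8 and 56.5 in NT and 55.9 and 48.4 in CoCl2, and TM9SF1 at 42.4 and 30.6 in NT and 45.2 and 48.7 in CoCl2. TM9SF3 was at 54.5 and 43.5 in NT and at 33.3 and 116.7 in CoCl2, where 4 and 7 edited reads on 12 and 6 covering reads fix no direction. Its lower number of edited reads under CoCl2 thus went with fewer covering reads, and a change per read was not detectable at this depth. With the length trend removed, the log2 changes per read were -0.84 for TM9SF2, -0.38 for TM9SF4, 0.32 for TM9SF1 and 0.30 for TM9SF3.

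**Figure D3:**
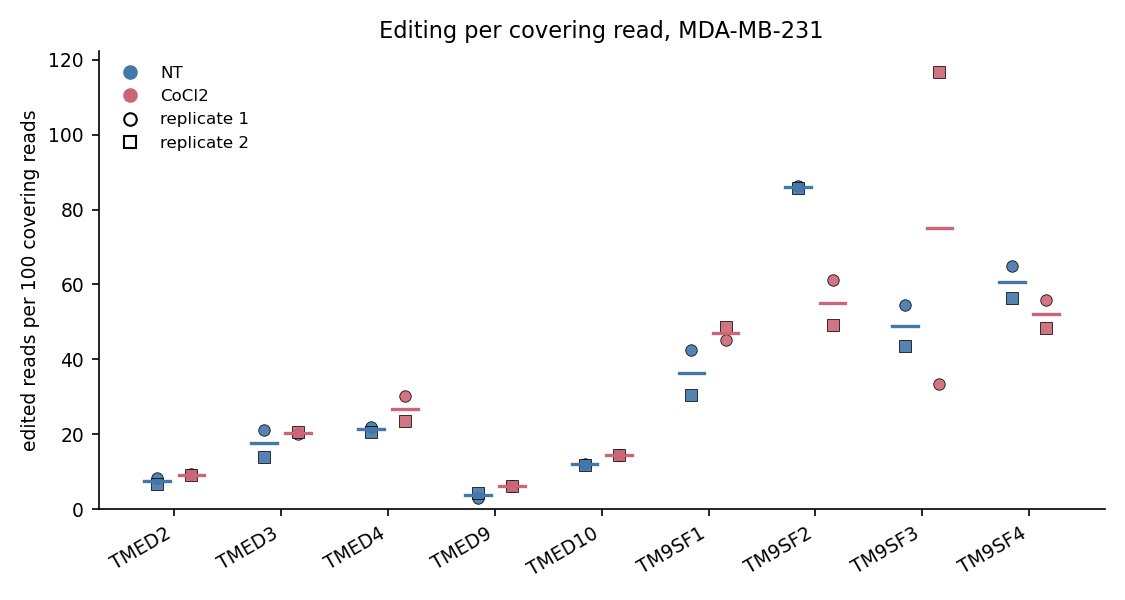
Edited reads per 100 covering reads of each gene in the NT and CoCl2 libraries of MDA-MB-231; points are libraries and bars the group mean. The TM9SF genes lie above the TMED genes in both conditions, and the 2 CoCl2 libraries of TM9SF3, at 33.3 and 116.7, lie far apart.

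The TM9SF coding sequences are longer than those of the TMED genes, from 1770 to 1992 bases against 606 to 708, and so offer more C to edit. Counted per 10000 coding C read, editing in NT was 21.4 ± 0.0952 for TM9SF2, 16.5 ± 2.63 for TM9SF3, 11.3 ± 1.09 for TM9SF4 and 9.45 ± 2.17 for TM9SF1 (mean ± SD, n = 2). Of the TMED genes, TMED4 was at 10.7 ± 0.387, TMED3 at 9.05 ± 2.55, TMED10 at 7.35 ± 0.0746, TMED2 at 5.79 ± 0.749 and TMED9 at 2.03 ± 0.479. In this order TM9SF4 and TMED4, TMED4 and TM9SF1, TM9SF1 and TMED3, and TMED3 and TMED10 differed by less than the larger SD of each pair. For TM9SF1 the 386 coding C of its most covered isoform were used, where its most edited isoform has 483. With the larger count its value would be lower, so its place in the order depends on that choice. Over 5660 genes the median was 6.56, so TM9SF2 stood above 96.9% of them and TM9SF3 above 92.4%, while TMED9 stood above 5.74%. TMED9 was also the best-covered gene of the 9 and TM9SF1 and TM9SF3 the least covered, with mean coverages of 1120, 34.8 and 38.

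The 9 genes had 711 edited positions in the MDA-MB-231 libraries. All lay in the coding sequence of the GENCODE v29 isoform and all were at a C. They made up 27.4% of the 2594 coding C of the main isoforms, from 50.8% in TMED2 to 9.73% in TM9SF1. Of the 711 positions, 428 were listed in 1 library, 183 in 2, 100 in 3 and 0 in all 4. Over all genes, 39900 positions of MDA-MB-231 were listed in 3 libraries but 18 in all 4, and no position of HEK293T was listed in all 6. Whether positions shared by all libraries of a line were taken out before deposit is not given in the sources used here. If they were, the edited reads of a gene leave those positions out, and a position that is not listed need not be unedited. In the NT libraries alone 287 of these positions were listed, 219 in the CoCl2 libraries alone and 205 in both conditions.

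**Figure D4:**
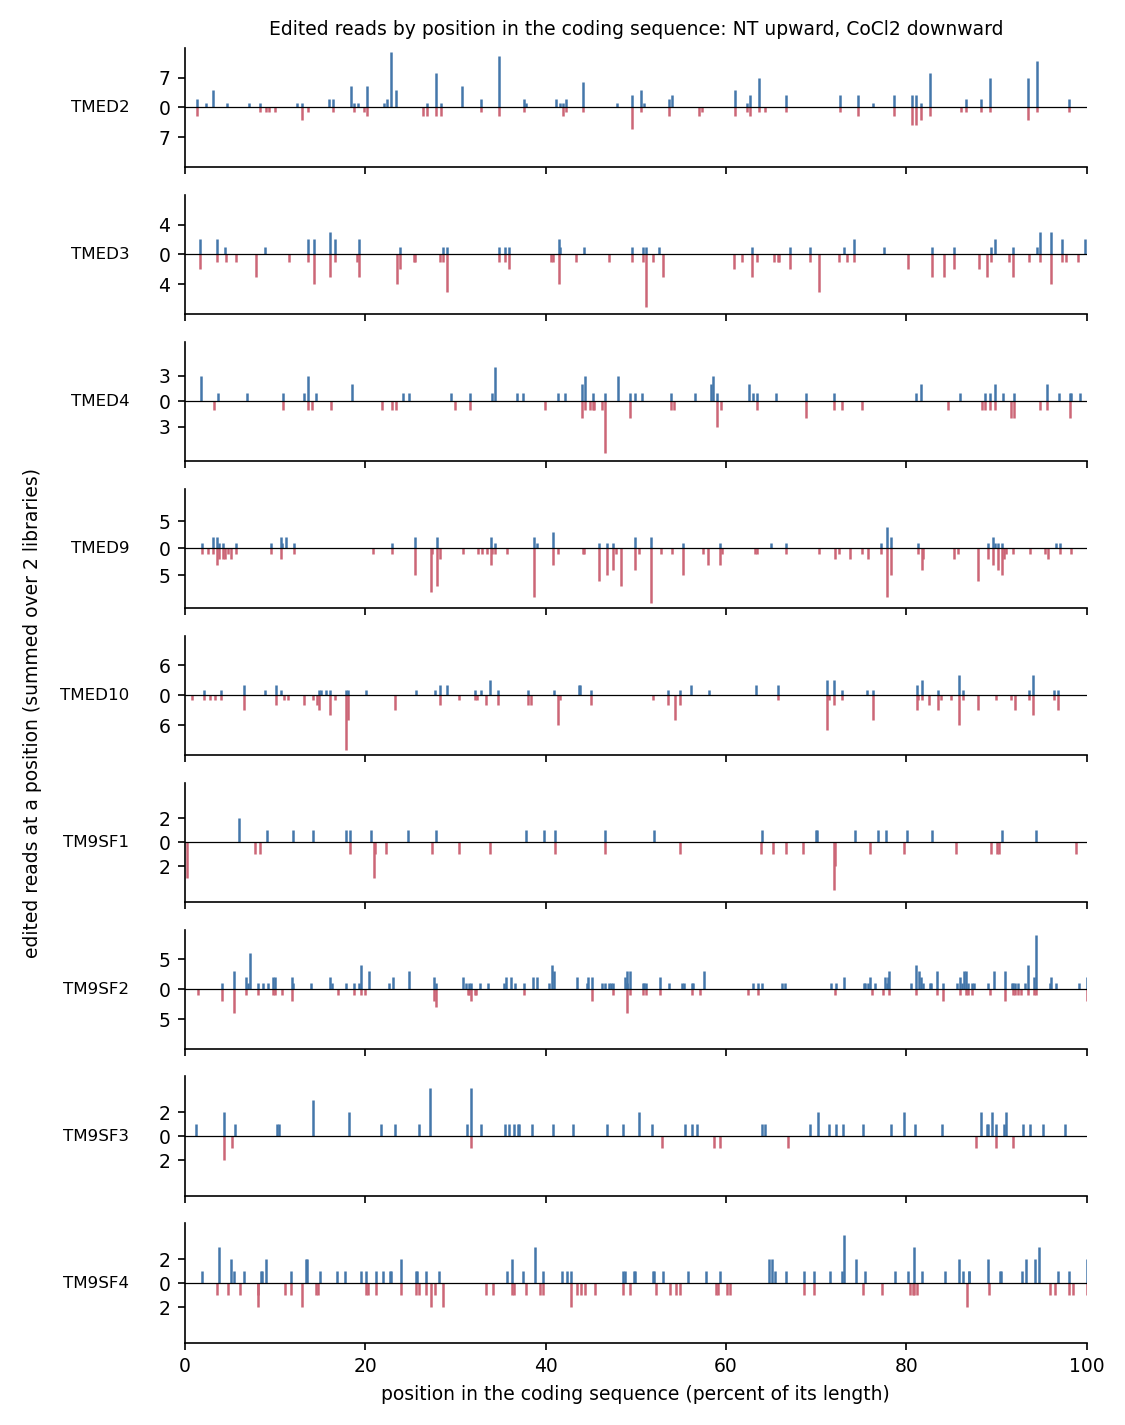
Edited reads at each listed position (vertical, summed over 2 libraries; NT upward, CoCl2 downward; each row has its own scale) along the coding sequence of each gene (horizontal, percent of its length). Positions were spread over the whole coding sequence in every gene; TM9SF3 has few CoCl2 positions and TMED9 mostly CoCl2 positions.

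Editing was spread along the reading frames. The median edited position lay at 49.6% of the coding sequence over all 9 genes, between 40.9% in TMED10 and 56.2% in TM9SF3. The 5 most edited positions of a gene held 10.6% of its edited reads in TM9SF4 and 23.7% in TM9SF1, the lowest and the highest share of the 9. Read as C-to-U changes, 402 of the 711 positions were synonymous (56.5%, against 50.3% of all coding C), 275 missense (38.7% against 44.2%) and 34 created a stop codon (4.78% against 5.55%). The TMED3 position in exon 3 shown above is one of those that create a stop codon, with 3 of 154 reads edited in NT replicate 1 and 4 of 288 in CoCl2 replicate 1. TMED2 and TMED10 had no edited position that created a stop codon, where 4 of 130 and 5 of 163 coding C could.

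The base before the edited C followed the known preference of APOBEC1 in most genes. It was A or U at 78.5% of the 711 positions, against 49.1% of all coding C. The share was 96.6% in TM9SF3, 90.6% in TM9SF2, 89.6% in TM9SF4, 89.4% in TM9SF1, 84.1% in TMED4, 74.2% in TMED2, 72.9% in TMED3 and 67.1% in TMED10. TMED9 stood apart with 39.3%, next to 38.7% of all its coding C. Among positions of TMED9 with 1 edited read the share was 11.4% (4 of 35), and among those with 4 or more it was 91.3% (21 of 23). In the other genes taken singly, positions with 4 or more edited reads were after A or U in every case, as in TMED2 (28 of 28), TMED10 (18 of 18) and TM9SF2 (18 of 18).

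Across all genes the share after A or U moved with coverage. Its median was 89.4% over 393 genes with a mean coverage under 50 reads and at least 40 edited positions, and 38.1% over 198 genes with more than 800. TMED9 lay near the median of the latter group and TM9SF3 above the 90th percentile (95.2%) of the former. In TMED9 the share was 53.8% of the 39 NT positions and 42.3% of the 78 CoCl2 positions. Its part in the edited reads of TMED9 under CoCl2 was not tested.

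In HEK293T the question was whether the genes were edited by the ribosome-bound enzyme beyond the free enzyme. Edited reads of TM9SF2 were 1, 0 and 0 in the APOBEC1-only libraries and 52, 42 and 55 in the Ribo-STAMP libraries. For TMED2 they were 2, 1 and 1 against 41, 47 and 40, for TMED10 1, 1 and 0 against 23, 19 and 11, and for TM9SF3 1, 0 and 0 against 28, 10 and 15. Every Ribo-STAMP library of these 4 genes was far above every APOBEC1-only library. They are the genes of the set with enough Ribo-STAMP edits to be fitted, so this separation is a description and no support. Over all 654 genes fitted, 99.7% passed upward in limma. Per unit of depth the ratio was 29.4 for TMED2 (95% counting interval 11.2 to 109.5), 24.3 for TMED10 (6.41 to 206.1), 137 for TM9SF2 (24.2 to 5439) and 48.7 for TM9SF3 (8.36 to 1958). These intervals, exact and conditional on the summed counts, cover counting error at most, since the files give no molecular identifiers. They treat edits as independent, although a read edited at several positions counted at each, and leave out the spread between libraries. They can therefore be too narrow.

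These 4 genes passed the minimum of 10 edited reads in 3 libraries through their Ribo-STAMP libraries alone, so they had to differ, and their test in limma, which 99.7% of 654 genes passed upward, is not given as support. As sizes, the log2 changes were 4.16 for TMED2 (SE 0.61), 3.45 for TMED10 (SE 0.50), 5.27 for TM9SF2 (SE 0.61) and 3.73 for TM9SF3 (SE 0.44), beside 3.76 for the median gene. Under TMM scaling, which centres on the bulk of genes, their log2 changes were smaller, at 0.79 for TMED2, 0.72 for TMED10, 2.88 for TM9SF2 and 1.50 for TM9SF3, beside 0.75 for the median gene.

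The other 5 genes had few edited reads in HEK293T. Over the Ribo-STAMP libraries TMED9 had 13, TM9SF1 10, TMED4 8, TM9SF4 5 and TMED3 2, against 4, 1, 0, 2 and 1 in the APOBEC1-only libraries. The counting intervals of the ratio for TMED9 (0.922 to 12.6), TM9SF4 (0.376 to 24.1) and TMED3 (0.0956 to 108.3) all included 1, so a difference was not detectable at this depth. That of TM9SF1 ran from 1.31 to 398.5. TMED4 was not listed in any APOBEC1-only library.

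**Figure D5:**
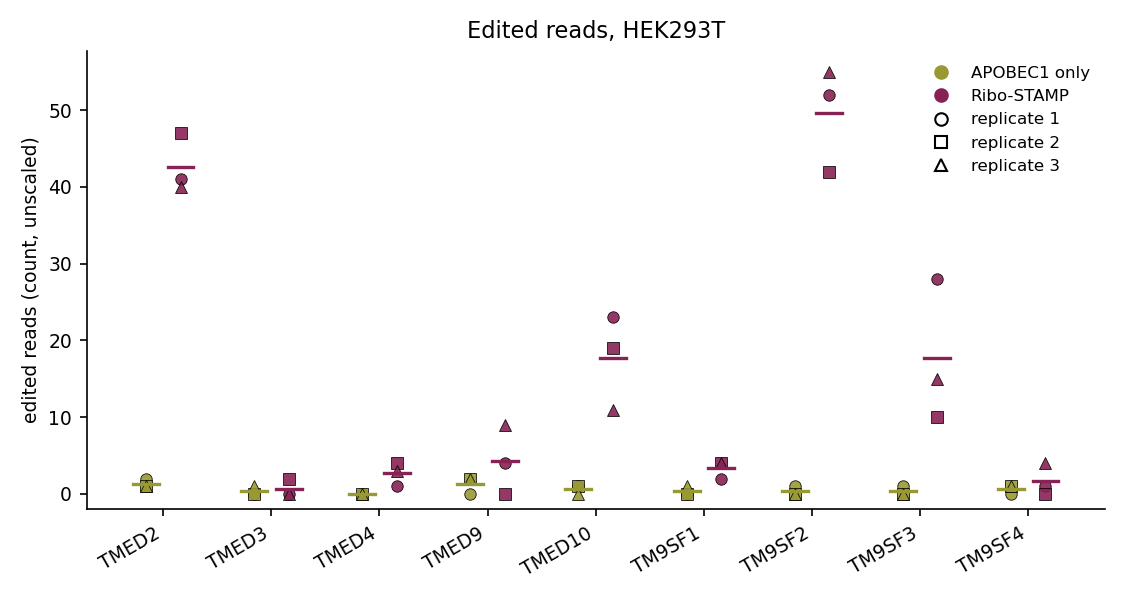
Edited reads (unscaled counts) of each gene in the 3 APOBEC1-only and 3 Ribo-STAMP libraries of HEK293T; points are libraries and bars the group mean. TM9SF2, TMED2, TMED10 and TM9SF3 reach 10 to 55 edited reads in the Ribo-STAMP libraries and no more than 2 in the APOBEC1-only libraries.

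Per covering read, only TMED2 was listed in all 6 HEK293T libraries. Its editing was 0.519, 0.364 and 0.398 per 100 covering reads in the APOBEC1-only libraries and 11.7, 12.4 and 11.5 in the Ribo-STAMP libraries. The log2 change was 4.34 (SE 0.27, adjusted p = 7.79e-09 in limma, where 95.7% of 392 genes passed upward), and it was 0.96 with each library centred on its median gene (adjusted p = 0.018 in limma). In the Ribo-STAMP libraries, editing per 100 covering reads was 45.2, 53.8 and 64.7 for TM9SF2, 30.4, 20 and 48.4 for TM9SF3 and 12.0, 16.7 and 16.7 for TMED10. TM9SF2 was thus above TMED2 and TMED10 in every Ribo-STAMP library of HEK293T, as it was in both NT libraries of MDA-MB-231. TM9SF2 has 402 coding C, against 130 in TMED2 and 163 in TMED10. The HEK293T values were not divided by that number, so part of the gap can come from it.

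Other genes of the route between ER and Golgi were tested under CoCl2 in limma, from lists chosen with earlier results of these data known. Of the other TMED genes, TMED1 rose in coverage, from 115.5 ± 33.0 to 246.6 ± 11.9 (mean ± SD, n = 2 and 2; log2 change 1.12, adjusted p = 0.0024 in limma). TMED5 (0.26, adjusted p = 0.43 in limma) and TMED7 (-0.50, adjusted p = 0.22 in limma) did not pass. With the length trend removed in the same model, TMED1 was at 0.38 (adjusted p = 0.18 in limma), TMED5 passed at 0.78 (adjusted p = 0.037 in limma), and TMED7 was at 0.07. In edited reads TMED1 rose by 1.48 (adjusted p = 0.038 in limma; 0.43 and not called with the length trend removed), and TMED5 was at 0.77 (adjusted p = 0.21 in limma).

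Over all 5673 genes, 24.1% rose and 19.4% fell in coverage, against which the count of each list is read. Of 12 COPI coat genes tested, 7 fell in coverage and 1 rose, with a median log2 change of -0.71 against -0.05 over all genes. The largest fall was in ARFGAP3, which encodes a GTPase-activating protein for ARF1 (-1.32, SE 0.30, adjusted p = 0.0031 in limma). The rise was in COPE, the ε subunit (1.11, SE 0.21, adjusted p = 0.0018 in limma). With the length trend removed only ARFGAP3 fell (-0.92, adjusted p = 0.042 in limma) and none rose. Without CoCl2 replicate 1, or without CoCl2 replicate 2, no COPI gene passed in limma, where 5 and 6 of the 12 had an unadjusted p under 0.05. In edited reads, COPE rose (1.38, adjusted p = 0.042 in limma) and COPB1, the β subunit, fell (-1.13, adjusted p = 0.035 in limma) among 11 tested, where 12.1% of all genes rose and 2.9% fell. Neither passed with the length trend removed, at 0.23 for COPE and -0.72 for COPB1.

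Of 11 COPII genes, 3 fell in coverage and 1 rose (median -0.39). SEC13, part of the outer coat, rose (0.82, SE 0.20, adjusted p = 0.0046 in limma), and SEC23B, of the inner coat, fell most (-0.84, SE 0.28, adjusted p = 0.021 in limma). SEC13 also rose in edited reads, the only one of 10 tested (1.71, adjusted p = 0.030 in limma; 0.72 and not called with the length trend removed). With the length trend removed SEC13 was at 0.14 and SEC23B at -0.29 in coverage, and neither passed. SAR1A, the GTPase that starts COPII assembly, then passed upward at 1.10 (adjusted p = 0.022 in limma) and TFG downward at -0.66 (adjusted p = 0.020 in limma); both were named after their values were seen.

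Of 15 other cargo receptors, 3 rose and 3 fell in coverage (median -0.19). BCAP31, an ER export receptor, rose most (1.18, SE 0.19, adjusted p = 0.0011 in limma) and did so with the length trend removed too (0.67, adjusted p = 0.0096 in limma). CNIH4, named after its values were seen, also passed upward with the length trend removed (1.00, adjusted p = 0.022 in limma). ERGIC2 fell most (-0.79, adjusted p = 0.020 in limma; -0.26 with the length trend removed). In edited reads 3 of 14 rose, led by ERGIC3 (1.31, adjusted p = 0.034 in limma), and none fell. None of the 14 passed with the length trend removed, where ERGIC3 was at 0.27 and 3 of the 14 had an unadjusted p under 0.05 in limma.

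Of 11 Golgi matrix and tethering genes, 2 rose and 4 fell in coverage (median -0.57). TRAPPC3 rose (1.21, adjusted p = 0.0021 in limma) and the tether gene USO1 fell (-1.71, SE 0.41, adjusted p = 0.0043 in limma), and neither passed with the length trend removed. COG8 then passed upward at 1.10 (adjusted p = 0.012 in limma) and COG2 downward at -1.03 (adjusted p = 0.046 in limma). Both were named after their values were seen. Of 9 SNARE-related genes, 2 rose and 3 fell (median -0.38). Their extremes were NAPA (0.95, adjusted p = 0.0022 in limma) and SCFD1 (-1.18, adjusted p = 0.0081 in limma). Both passed with the length trend removed as well, at 0.58 and -1.21. In edited reads TRAPPC1 rose (1.49, adjusted p = 0.035 in limma) and so did STX5 (1.58, adjusted p = 0.033 in limma), and no gene of either list fell. Neither TRAPPC1 nor STX5 passed with the length trend removed, at 0.27 for TRAPPC1 and 0.94 for STX5.

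For the cargo that TMED proteins are known to carry, 7 GPI-anchored surface proteins were tested, of which 1 rose and 1 fell in coverage. PLAUR, the urokinase receptor gene, rose (0.70, adjusted p = 0.013 in limma; 0.09 with the length trend removed) and PRNP, the prion protein gene, fell (-0.76, adjusted p = 0.0068 in limma; -0.89 with the length trend removed). With the length trend removed, 2 of the 7 passed downward in limma, where 6.15% of all genes did, and none passed upward. PLAUR also rose in edited reads (1.33, adjusted p = 0.032 in limma; 0.42 and not called with the length trend removed). Of the 5 genes tested for attachment of the GPI anchor, GPAA1 (0.63, adjusted p = 0.011 in limma) and PIGT (0.49, adjusted p = 0.046 in limma) rose in coverage. GPAA1 still passed with the length trend removed (0.46, adjusted p = 0.039 in limma) and PIGT did not (0.42, adjusted p = 0.084 in limma). PIGU (0.36), PIGS (-0.17) and PIGK (-0.15) did not pass. GPAA1, a transamidase subunit, also rose in edited reads (1.01, adjusted p = 0.034 in limma; 0.65 and not called with the length trend removed).

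Without CoCl2 replicate 1, 1 gene of the Golgi list passed in coverage and none of the other pathway lists, and without CoCl2 replicate 2 none of any of them did. Over all 5673 genes, calls in coverage went from 1367 up and 1102 down to 0 and 12 without CoCl2 replicate 1, and to 2 and 21 without CoCl2 replicate 2.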

How the data were processed

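Each deposited file lists, per the file contents, coding positions of an isoform with a pair of whole numbers, taken here as edited and covering counts of reads; how the authors made these counts, beyond the kits and the genome builds hg19 and hg38 in the submitters' processing notes, is not given in the sources used here. HEK293T positions were used without coordinates and MDA-MB-231 positions with GRCh38 and GENCODE v29. Positions with no edited read carry no row, so coverage is known only where editing was seen. How reads shared with the pseudogenes TMED2P1, TMED10P1 and TMED10P2 were assigned is not given in the sources used here.

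The measures computed per gene were edited reads divided by relative depth, coverage with TMM scaling (30% and 5% trimmed), and editing per covering read (log2 of edited over unedited reads, 0.5 added to each). The first 2 were tested as log2(value + 1) with limma 3.58.1 in R 4.3.3, with an intensity trend, two-sided, Benjamini-Hochberg adjustment over all genes and a threshold of 0.05. A count model was not used, because sums over positions and median coverages are not independent read counts. Genes had to reach 10 edited reads in a number of libraries equal to the smaller group's, or a mean coverage of 10. The scripts were tested on simulated data.

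The 9 genes and all lists were chosen with earlier results of these data known. Besides the 9, the text names in each list the gene with the largest rise and the largest fall past the threshold, or all genes where 5 or fewer were tested. The labels do not say that replicates were separate cultures, so the p-values reflect only the spread among these libraries, which may be technical. Whether replicate numbers pair the libraries is not known, and the main fits used no pairing. Alternatives covered scaling, filters, pseudocounts, transcript length, left-out libraries and a replicate block; the 4 that combine transcript length with edited reads, with editing per read or with a left-out NT library were chosen after seeing the data, as was the comparison with genes of like length.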

Additional observations from a re-analysis of the deposited data

How the results depend on the processing

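The number of genes called in MDA-MB-231 depended on the libraries and the processing, and the cause was not tested. For edited reads, 614 calls became 0 without the minimum, 0 with edited positions, 205 with positions covered by at least 20 reads, 171 with the length trend removed and 9 to 1663 when a library was left out. For coverage, 2469 calls became 817 with the length trend removed, 1069 with all listed isoforms, 12 to 3805 when a library was left out, and 919 and 2081 with the length trend removed and NT replicate 1 or 2 left out. In HEK293T, 653 calls in edited reads became 26 under TMM scaling, 2267 without the minimum and 757 to 1066 when a library was left out, and 375 calls in editing per read became 126 with each library centred on its median gene. With replicate number as a block (replicate block), the calls were 1088 for edited reads and 2424 for coverage in MDA-MB-231, and 654 and 380 in HEK293T. With a library left out, the lone library of its group was assumed to vary like the other group. Whether the numbers pair the libraries could not be settled, since 2 libraries per group give a single correlation per measure in MDA-MB-231. Correlations of deviations there were 0.02 for edited reads and coverage and -0.01 for editing per read. In HEK293T they were 0.09, 0.12 and 0.33 for edited reads and 0.13, 0.04 and 0.22 for editing per read.

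In MDA-MB-231, the changes of direction listed here were in genes that had not passed, except PLAUR in coverage. Those in HEK293T were all in genes that had passed. In edited reads, PIGS turned to 0.084 with edited positions and 0.19 with the length trend removed, and ran from -0.22 to 0.050 over left-out libraries. PIGU turned to -0.20 with the length trend removed, and PIGK ran from -0.12 to 0.64 over left-out libraries. In coverage with the length trend removed, TMED7 turned to 0.071, PIGS to 0.23, PIGU to -0.17 and PIGK to 0.38. With NT replicate 1 left out as well, the values were 0.18, 0.13, -0.26 and 0.54, and PLAUR turned to -0.047; with NT replicate 2 left out instead, PIGS was at 0.33, PIGU at -0.092 and PIGK at 0.21. PIGK ran from -0.54 to 0.21 over left-out libraries alone. In editing per read, PIGS turned to -0.17 and PIGT to -0.030 with centring, and PIGS to -0.14 and PIGT to -0.017 with the length trend removed. Over left-out libraries PIGS ran from -0.14 to 0.20 and TMED7 from -0.78 to 0.080. In HEK293T, TMM scaling turned edited reads of GORASP2 to -1.24, NSF to -0.51 and PIGS to -1.04, and centring turned editing per read of SEC23B to -0.19, TFG to -0.93, GORASP2 to -0.49 and NSF to -0.56.

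Of the 9 genes, TM9SF3 was lower in coverage in 13 of 13 settings (-3.09 to -1.82) and so were TMED2 (-1.78 to -0.46), TM9SF2 (-0.87 to -0.07) and TMED4 (-0.50 to -0.20), while TMED9 (0.46 to 1.24), TMED10 (0.58 to 1.71) and TMED3 (0.19 to 0.98) were higher in 13 of 13. TM9SF1 was higher in 12 of 13 (-0.04 to 0.37) and TM9SF4 in 3 of 13 (-0.45 to 0.35). All settings re-used the same libraries, so a constant sign over them is no independent support. With 2 libraries per group and 6 to 12 covering reads of TM9SF3 under CoCl2, depth limits what can be said of its editing per read.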

Other observations

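A few of the genes had reads on more than 1 isoform. TM9SF2 had 2 isoforms listed in all 4 MDA-MB-231 libraries. ENST00000376387, of 3430 bases, held 80% and 84.8% of the gene's covering reads in NT and 88.1% and 82.5% in CoCl2, and ENST00000642475, of 3858 bases, held the rest. Editing per 100 covering reads was 66 and 85.7 in NT and 50.8 and 42.6 in CoCl2 for the former, and 168 and 86.7 in NT and 137.5 and 80 in CoCl2 for the latter, which rested on 8 to 25 covering reads. The lower editing per read of TM9SF2 under CoCl2 was thus seen in both CoCl2 libraries for the main isoform, while the values of the minor isoform overlapped.

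TM9SF1 was divided about evenly between ENST00000261789 (54.5% and 47.2% of covering reads in NT, 45.2% and 32.5% in CoCl2) and the shorter ENST00000396854 (45.5% and 52.8% in NT, 54.8% and 65% in CoCl2). The former had more editing per 100 covering reads in all 4 libraries (55.6, 41.2, 64.3 and 100 against 26.7, 21.1, 29.4 and 23.1, in the order of NT replicates and then CoCl2 replicates), on 13 to 26 covering reads each. For TMED4, ENST00000457408 held 69.5% to 100% of the covering reads. TMED2, TMED9, TMED10, TM9SF3 and TM9SF4 each had a single isoform at or near 100% of their covering reads. Reads of isoforms of a gene share most of their sequence, and how the authors told them apart is not given in the sources used here.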
